A study of Mus musculus with 6 samples.

Results

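The splicing factor and heterogeneous nuclear ribonucleoprotein (hnRNP) genes were compared between Pdk4SMKO and Pdk4fl/fl mouse aortic smooth muscle cells (MASMCs). The genes were the protein-coding entries of the count table whose names begin with Srsf and a digit, Hnrnp, Sf3a or Sf3b and a digit, Snrpa to Snrpg, or U2af, together with the Celf, Mbnl, Rbfox and Ptbp families. They were 65 of the 41721 genes in the table. MASMCs are smooth muscle cells grown out of the mouse abdominal aorta. The study's methods describe the donors as 10-week-old male mice, whose cells were freed by enzymatic digestion of the aorta and used between passages 4 and 8. Pdk4SMKO mice carried loxP-flanked Pdk4 alleles and a tamoxifen-inducible Cre driven by the smooth muscle Myh11 promoter on the Y chromosome, and Pdk4fl/fl mice carried the flanked alleles without Cre. Tamoxifen was given to mice of both genotypes. All 6 cultures, 3 per genotype, were treated with angiotensin II (Ang II), for which the study's methods give 1 μM and 48 h while the labels name the agent alone. No library without Ang II was part of the comparison, and the labels do not say whether the 3 libraries of a genotype came from separate mice, so p-values measure the spread between these libraries.

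Before a messenger RNA leaves the nucleus its introns are removed by the spliceosome, which is built from small nuclear ribonucleoproteins (snRNPs) on the splice sites. Serine/arginine-rich (SR) proteins bind exons and favour their use, whereas hnRNP proteins often act against them, so the balance of these proteins helps to decide which exons are kept. In smooth muscle, PTBP1 is known for repressing muscle exons, and MBNL1, RBFOX2 and members of the CELF family are known for directing muscle splicing programs. The counts described here are totals per gene. They report the level of each splicing factor's own transcript, and exon use was not measured.

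The libraries held between 16526044 and 22481670 counts each. A count of 3, taken as the floor of detection, corresponded to between 0.132 and 0.227 CPM, where CPM is a gene's count relative to the library total after scaling with edgeR's TMM factors. Pdk4, the targeted gene, had 570, 639 and 421 counts in the Pdk4fl/fl libraries and 110, 182 and 141 in the Pdk4SMKO libraries, so that 19.8% of its level remained. Xist, the RNA of the inactive X chromosome in female cells, had 3, 4 and 5 counts in Pdk4fl/fl and 610, 347 and 321 in Pdk4SMKO libraries, although the mice are described as male. Genotype therefore cannot be told apart here from the sex of the cells or from an error in the labels. At an adjusted p under 0.05 in edgeR's quasi-likelihood test, 37.1% of all 14085 genes tested were lower and 42.0% higher in Pdk4SMKO cells. Counts of markers called are to be read beside that share, 79.1% in all. Of 10 smooth muscle markers tested, 4 were lower and 6 higher in Pdk4SMKO cells, and their summed level ranged from 789 to 816 CPM in Pdk4fl/fl and from 739 to 974 CPM in Pdk4SMKO libraries. Summed fibroblast markers ranged from 141 to 173 CPM and from 1320 to 2774 CPM, and 3 of 6 tested were higher and 1 lower. All 6 mesothelial markers tested were higher, with sums from 74.2 to 99.99 CPM and from 707 to 1298 CPM. Proliferation markers summed to between 1218 and 1330 CPM in Pdk4fl/fl and between 348 and 525 CPM in Pdk4SMKO libraries, with 4 of 6 lower. Macrophage markers summed to between 21.4 and 38.0 CPM and between 9.71 and 30.5 CPM, with 5 of 6 tested higher and 1 lower, and Adgre1, C1qa, C1qb and Tyrobp were at 0 in every Pdk4fl/fl library. Endothelial markers stayed between 12.5 and 21.6 CPM and between 2.24 and 4.65 CPM, most of it Kdr, the 1 marker tested, which was lower, with Tie1 at 0 in every Pdk4fl/fl library. Neuronal markers summed to between 88.9 and 98.2 CPM and between 28.2 and 43.3 CPM, with 3 of 3 tested lower, and Rbfox3 was at 0 in all libraries. Among these markers, Myh11, Des, Lum, Upk3b, Wt1, Lrrn4 and Upk1b passed the filter on low counts only through Pdk4SMKO. So did the 5 macrophage markers counted as higher, and all of these had to be higher. Syt1 and Elavl3 passed only through Pdk4fl/fl and had to be lower. The markers moved with genotype in the same libraries as every result below, and their part in the results was not tested.

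Most splicing factor and hnRNP genes were lower in Pdk4SMKO than in Pdk4fl/fl cells. Their summed level fell from between 17175 and 18940 CPM in the Pdk4fl/fl libraries to between 7799 and 8214 CPM in the Pdk4SMKO libraries. As a share of all counts, which does not use the TMM factors, the 65 genes took 1.42% to 1.48% in Pdk4fl/fl and 0.968% to 1.01% in Pdk4SMKO libraries. In bulk RNA, fewer cells that carry a transcript and less of it per cell cannot be told apart. Of the 65 genes, 62 passed the filter on low counts and entered edgeR's quasi-likelihood test. Srsf12, Rbfox1 and Rbfox3 did not, while Celf6 passed only through Pdk4fl/fl and Celf5 only through Pdk4SMKO, so those 2 genes had to differ. Of the 60 genes that passed in both genotypes, 40 were lower and 8 higher at an adjusted p under 0.05, and 12 did not pass the threshold. Among all 14085 genes tested, 37.1% were lower and 42.0% higher by the same rule, 79.1% in all. With a fold change of at least 2 as well, 33 of the 60 genes were lower and 4 higher, against 26.5% lower and 32.8% higher of all genes tested. The median log2 fold change of the 60 genes was -1.27, while that of all genes tested was 0.12. Among the 62 genes, the Pdk4SMKO libraries lay entirely below the Pdk4fl/fl libraries for 41 and entirely above for 11, where 38.3% and 43.5% of all genes did so, 81.8% in all.

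**Figure D1:**
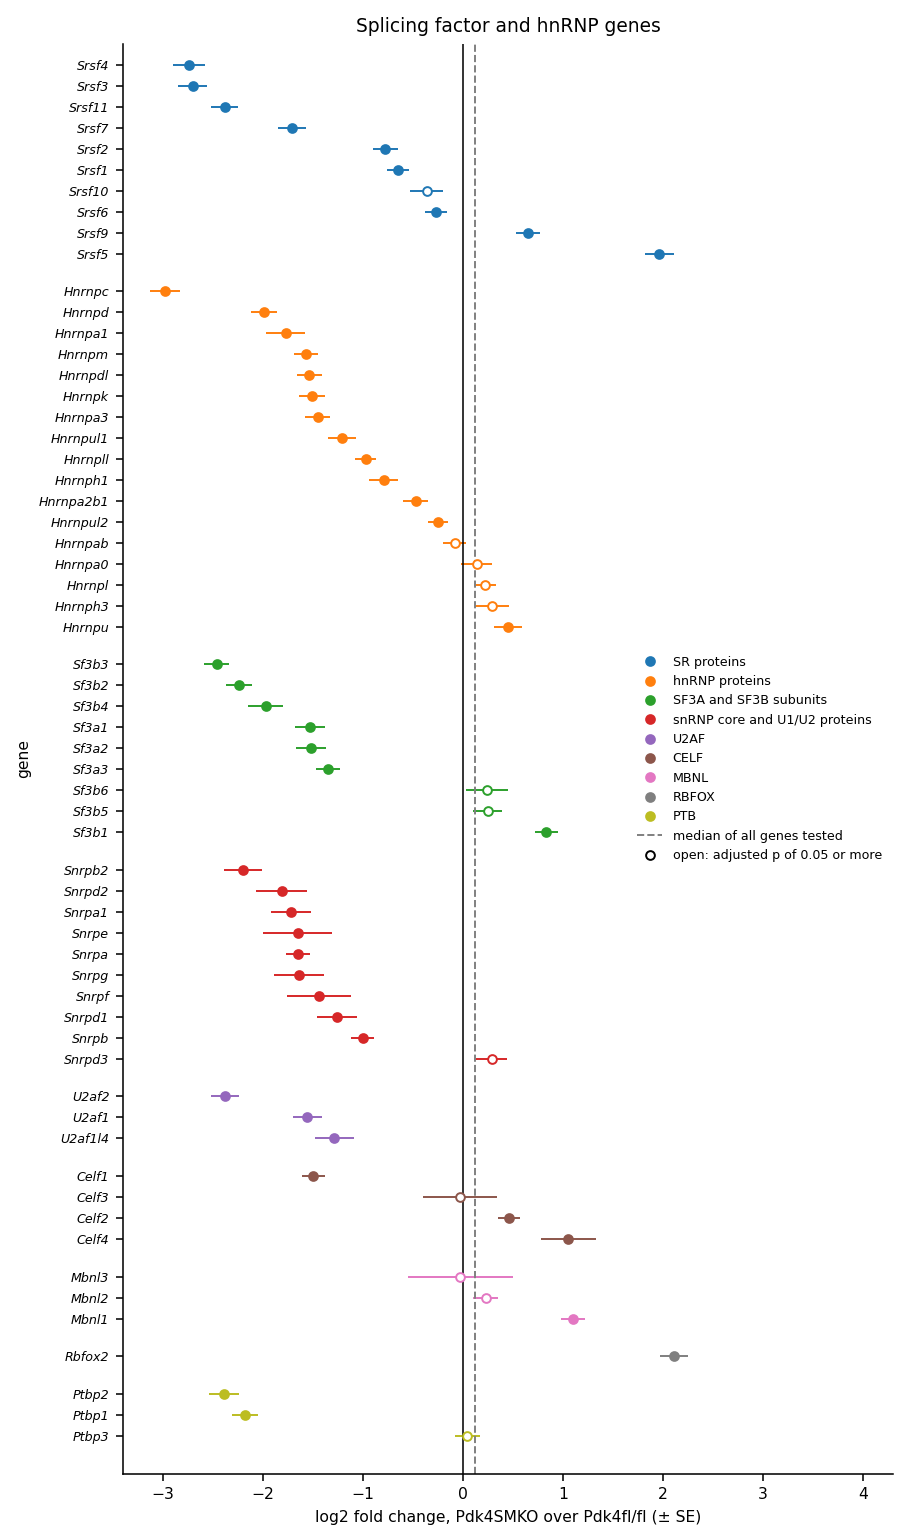
Log2 fold change of Pdk4SMKO over Pdk4fl/fl with its standard error for the 60 genes that passed the filter in both genotypes, by family, with open circles for an adjusted p of 0.05 or more and a dashed line at the median of all genes tested (0.12). Most points of the SR, hnRNP, SF3, snRNP and U2AF families lie to the left of 0, and Srsf5 (1.96) and Rbfox2 (2.11) lie farthest to the right.

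The scale behind these directions mattered. Scaling by library size alone placed the median of all genes at 0.72 and that of the 62 genes at -0.66, so that 35 were lower and 20 higher, and the share of lower genes among all genes called moved from 46.9% to 31.4%. A scaling factor moves all genes of a library together, so the gap between the median of the 62 genes and that of all genes had to stay. It was -1.39 under TMM, RLE, upper-quartile and library-size scaling. With the trend of fold change on abundance removed, which can change it, the gap was -0.66. Fold change also ran with abundance over the whole table. With the tested genes cut into 10 equal bins by mean CPM, the median log2 fold change was 2.08 in the least abundant bin and -0.90 in the most abundant bin. Of the 62 genes, 30 stood in the most abundant bin, where their median was -1.33. Set against the median of their own bin, 39 genes lay below and 23 above, with a median difference of -0.58. For bins of gene length the corresponding numbers were 48 below and 14 above, with a median difference of -1.27.

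**Figure D2:**
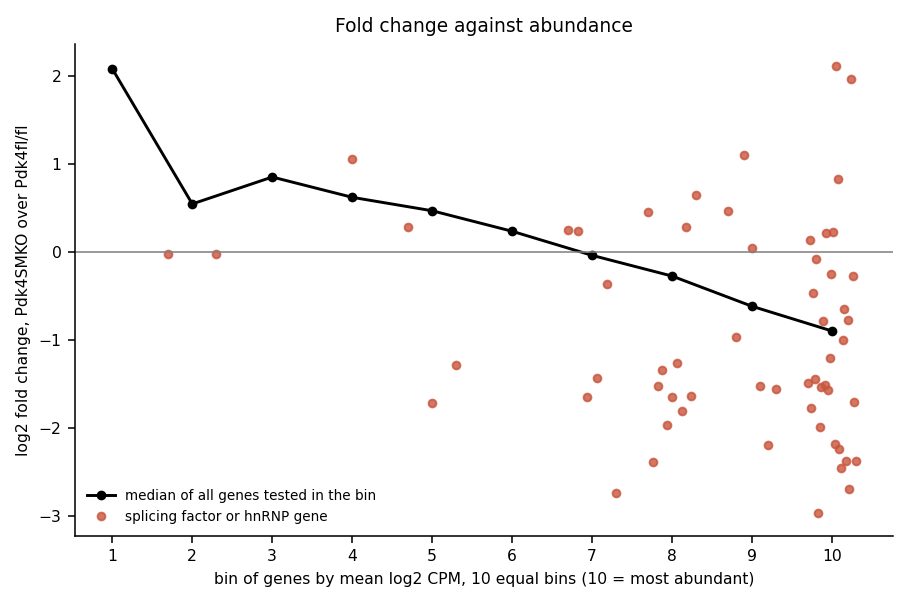
Log2 fold change of the 60 splicing factor and hnRNP genes that passed the filter in both genotypes (points, spread sideways within a bin for visibility) against the bin of mean abundance, with the median of all genes tested in that bin as a black line. The line falls from 2.08 to -0.90, and 30 of the genes stand in bin 10, on both sides of the line.

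The genes for proteins of the snRNP particles were lower with 1 exception. Of 10 tested, 9 were lower by at least 2-fold, 0 were higher, and the median log2 fold change was -1.65. Over all genes tested, 26.5% were lower by at least 2-fold. Among the Sm proteins, which form the ring around the small nuclear RNAs, Snrpe had 43.3, 58.9 and 131 CPM in Pdk4fl/fl and 28.5, 22.3 and 23.2 CPM in Pdk4SMKO libraries. All Pdk4SMKO values lay below the Pdk4fl/fl values, which themselves spread widely (log2 fold change -1.65, standard error 0.35, adjusted p = 0.00131). Snrpd2, another Sm gene, had 61.1, 78.0 and 135 CPM against 26.6, 23.5 and 27.8 CPM (log2 fold change -1.81). Snrpf, Snrpg, Snrpd1 and Snrpb fell by 1.44, 1.64, 1.26 and 1.00 on the log2 scale, the Snrpb call being lost with the trend on abundance removed (-0.20, adjusted p = 0.124). Snrpd3 was the exception, with 43.7, 44.0 and 61.5 CPM in Pdk4fl/fl and 58.2, 57.7 and 65.9 CPM in Pdk4SMKO libraries. Its span overlaps that of Gucd1 on the opposite strand, which rose from 384 to 1347 counts, against 6098 of Snrpd3 in all libraries. Whether strand entered the counting is not known. The groups of Snrpd3 overlapped (log2 fold change 0.29, adjusted p = 0.114), and without Pdk4fl/fl replicate 3 it was 0.45 higher with an adjusted p of 0.0051. That library stood high for the 7 Sm genes, with a median deviation from the genotype mean of 0.54 on the log2 scale, against -0.49 for Pdk4fl/fl replicate 1. Leaving it out moved the median of the 10 genes from -1.65 to -1.21.

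The 3 genes that mark the U1 and U2 particles followed the Sm genes. Snrpa encodes a protein of the U1 particle, and it had 94.8, 103 and 87.9 CPM in Pdk4fl/fl and 29.5, 31.5 and 30.0 CPM in Pdk4SMKO libraries (log2 fold change -1.65, standard error 0.12, adjusted p = 7.43e-07). The genotypes stood far apart, and the replicates of each were close. Snrpa1 and Snrpb2 encode a pair of U2 particle proteins, and they fell by 1.72 and 2.20 on the log2 scale. Snrpb2 was the snRNP gene with the most negative fold change, at 147, 149.9 and 223 CPM against 33.2, 35.1 and 44.8 CPM.

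SF3A and SF3B are the parts of the U2 particle that hold the branch site of the intron, and the 9 genes named for them were split. At least 2-fold lower levels were found for 6, 1 was higher and 2 were not called, with a median log2 fold change of -1.52. Over all genes tested, 26.5% were at least 2-fold lower, and 79.1% were called in either direction. Sf3b3 had 951, 971 and 816 CPM in Pdk4fl/fl and 162, 167 and 168 CPM in Pdk4SMKO libraries, a 5.51-fold difference (log2 fold change -2.46, standard error 0.13, adjusted p = 7.37e-08). Sf3b2, the SF3B gene with the highest level per kilobase in Pdk4fl/fl cells, had 1086, 1183 and 961 CPM against 216, 244 and 225 CPM (log2 fold change -2.24). In both cases no Pdk4SMKO library came near a Pdk4fl/fl library. Sf3b4 was 3.93-fold lower, and Sf3a1, Sf3a2 and Sf3a3, the genes of the SF3A trimer, were 2.88-fold, 2.87-fold and 2.55-fold lower. The span of Sf3a2 overlaps that of Plekhj1 on the opposite strand, which rose from 832 to 1435 counts, against 8054 of Sf3a2 in all libraries. Sf3b1 encodes the largest SF3B protein, which contacts the branch helix, and it moved the other way. It had 196, 179 and 179 CPM in Pdk4fl/fl and 303, 328 and 354 CPM in Pdk4SMKO libraries, without overlap (log2 fold change 0.83, standard error 0.12, adjusted p = 7.92e-05). The small subunits Sf3b5 and Sf3b6 gave log2 fold changes of 0.25 and 0.24, with adjusted p of 0.139 and 0.306, and both passed the threshold as higher without Pdk4fl/fl replicate 3 (adjusted p = 0.0185 and 0.0155). Phf5a, a small SF3B gene that is named otherwise, is counted below among the other splicing genes. It was 2.23-fold lower, without overlap (log2 fold change -1.16).

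U2AF recognises the 3' end of the intron before the U2 particle arrives, and all 3 of its genes were lower by at least 2-fold. By that rule 26.5% of all genes tested were lower. U2af2 encodes the large subunit, which binds the polypyrimidine tract, and had 472, 541 and 518 CPM in Pdk4fl/fl and 110, 98.7 and 85.5 CPM in Pdk4SMKO libraries (log2 fold change -2.38, standard error 0.14, adjusted p = 1.48e-07). U2af1 encodes the small subunit, which reads the AG at the intron end, and had 120.3, 141 and 173 CPM against 49.7, 49.0 and 48.6 CPM (log2 fold change -1.56). For both subunits the genotypes did not overlap. U2af1l4, a relative of the small subunit, fell by 1.29 on the log2 scale, from 16.0 ± 1.78 to 6.54 ± 1.19 CPM (SD, n = 3), but its span shares sequence with Lin37 on the opposite strand, which also had fewer counts in Pdk4SMKO cells (603 and 198). The sources used here do not say if strand entered the counting. The summed level per kilobase of the U2AF genes was 390 ± 38.8 CPM per kilobase in Pdk4fl/fl and 97.5 ± 6.61 CPM per kilobase in Pdk4SMKO libraries (SD, n = 3). An exact permutation test, two-sided, gave p = 0.1, below which 3 libraries against 3 cannot go.

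The SR proteins did not move as a block. Of the 10 genes tested, 7 were lower and 2 higher, 4 and 1 of them by at least 2-fold, and the median log2 fold change was -0.71. Over all genes tested, 37.1% were lower and 42.0% higher, 26.5% and 32.8% by at least 2-fold. Srsf3, Srsf4 and Srsf11 fell most and Srsf5 rose most. Srsf3 (chromosome 17 from 29663064 to 29673288 in the coordinates of the count table) encodes the smallest SR protein, which also takes part in mRNA export. It had 746, 781 and 952 CPM in Pdk4fl/fl and 119, 124 and 137 CPM in Pdk4SMKO libraries, a 6.51-fold difference (log2 fold change -2.70, standard error 0.14, adjusted p = 8.8e-08). Srsf4 (chromosome 4 from 138802121 to 138831483) encodes a large SR protein and had 78.4, 81.6 and 66.7 CPM against 9.57, 13.2 and 11.1 CPM (log2 fold change -2.74). In both genes every Pdk4SMKO library lay far below every Pdk4fl/fl library. An unnamed entry that overlaps Srsf4 on the same strand rose from 29 to 415 counts, against 4254 of Srsf4 in all libraries. Srsf5 (chromosome 12 from 83745565 to 83750568), a relative of Srsf4 and Srsf6, ran opposite to Srsf4, at 108, 106 and 107 CPM in Pdk4fl/fl and 336, 461 and 455 CPM in Pdk4SMKO libraries. Pdk4SMKO replicate 1 stood below the other Pdk4SMKO libraries but far above every Pdk4fl/fl library (log2 fold change 1.96, standard error 0.14, adjusted p = 8.06e-07).

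The promoters of these 3 SR genes are shown because the genes changed most in either direction within the family, and that of Celf6 because it went from a moderate level to 0 counts. The sequences are the 250 bases before the annotated start in RefSeq's GRCm38.p6 assembly, a build other than that of the count table, and each is written 5' to 3' on the strand of the gene. They lie at chr17:29032410-29032659 for Srsf3, chr4:131873387-131873636 for Srsf4, chr12:80945249-80945498 for Srsf5 and chr9:59578087-59578336 for Celf6, all on the plus strand. Srsf3 and Srsf5 have 1 listed start each, Srsf4 has 3 and Celf6 has 2, of which the first was taken. Capitals mark matches, on either strand, to 7 motifs. A CCAAT box was searched for as CCAAT and a TATA box, the element near the start of some genes, as TATAAA. The GC box was written GGGCGG, the ETS motif was written CCGGAAGT and the E-box, which basic helix-loop-helix proteins bind, was written CACGTG. The cyclic AMP response element (CRE) was written TGACGTCA, and the AP-1 motif was written TGACTCA.
Srsf3: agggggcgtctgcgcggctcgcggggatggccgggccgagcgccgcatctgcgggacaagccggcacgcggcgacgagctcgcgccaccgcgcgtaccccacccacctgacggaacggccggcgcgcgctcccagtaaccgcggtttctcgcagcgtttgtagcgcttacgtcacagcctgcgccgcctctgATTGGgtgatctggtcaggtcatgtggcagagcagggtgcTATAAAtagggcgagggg
Srsf4: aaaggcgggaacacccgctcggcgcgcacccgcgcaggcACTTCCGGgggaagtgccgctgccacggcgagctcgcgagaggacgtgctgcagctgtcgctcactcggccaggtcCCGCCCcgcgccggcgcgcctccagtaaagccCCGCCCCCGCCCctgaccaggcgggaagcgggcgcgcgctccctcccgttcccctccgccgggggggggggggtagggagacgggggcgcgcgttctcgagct
Srsf5: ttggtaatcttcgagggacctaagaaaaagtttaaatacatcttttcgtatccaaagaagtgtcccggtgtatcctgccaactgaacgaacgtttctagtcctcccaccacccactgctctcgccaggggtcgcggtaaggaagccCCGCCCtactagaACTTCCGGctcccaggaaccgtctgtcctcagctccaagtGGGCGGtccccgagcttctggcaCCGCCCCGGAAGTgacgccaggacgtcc
Celf6: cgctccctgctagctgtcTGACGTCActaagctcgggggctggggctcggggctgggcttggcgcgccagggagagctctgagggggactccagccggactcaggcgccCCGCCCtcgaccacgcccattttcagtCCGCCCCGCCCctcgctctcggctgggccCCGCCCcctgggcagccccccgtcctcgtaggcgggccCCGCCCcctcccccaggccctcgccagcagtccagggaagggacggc
Only the Srsf3 window held a TATA box, which begins 18 bases before the start, and a CCAAT box, which begins 58 bases before it. The Srsf4 window held 3 GC box matches and 1 ETS match, and the Srsf5 window held 3 GC box and 2 ETS matches, the pair nearest the start sharing bases. The Celf6 window held 5 GC box matches, of which the second and the third share a base, and a CRE that begins 232 bases before the start. Of the 65 genes, 55 had a listed promoter, in 83 windows. A GC box was present in 61.4% of these windows, and in 32.7% of the 32841 windows of all genes. The corresponding shares were 41.0% and 33.9% for a CCAAT box, 10.8% and 12.4% for a TATA box, 9.64% and 2.88% for the ETS motif, and 7.23% and 1.55% for a CRE. They were 7.23% and 6.02% for an E-box and 1.20% and 4.46% for the AP-1 motif. The ratio of CpG dinucleotides to the number given by base composition was above 0.6 in 73.5% of the windows and in 34.0% of all windows. A match to these letters is a description of the sequence, and binding was not measured.

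Among the other SR genes, Srsf11, whose product is also known as p54, had 617, 645 and 631 CPM in Pdk4fl/fl and 138, 107 and 119 CPM in Pdk4SMKO libraries (log2 fold change -2.38, adjusted p = 1.26e-07). Srsf7, a relative of Srsf3, fell by 1.71 on the log2 scale, from 239, 212 and 290 CPM to 71.8, 74.1 and 81.2 CPM. Neither gene overlapped between the genotypes. Srsf2 and Srsf1, the founding SR proteins SC35 and ASF/SF2, were 1.71-fold and 1.57-fold lower (adjusted p = 0.000249 and 0.000375), but both calls were lost with library size alone (adjusted p = 0.229 and 0.732). Srsf2 overlaps Mfsd11 on the opposite strand, which had 3643 counts in Pdk4fl/fl and 2927 in Pdk4SMKO libraries against 19502 counts of Srsf2 in all. Srsf6 was 1.21-fold lower (adjusted p = 0.0411), a call that was lost when any of 5 libraries was left out, and under library size alone it turned to 0.33 higher on the log2 scale. Srsf9 rose from 37.6 ± 2.25 to 59.0 ± 2.06 CPM (SD, n = 3, log2 fold change 0.65, adjusted p = 0.000465). Srsf12, with 2 to 9 counts per library, was too low to test.

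The composition of the SR transcripts changed with these moves. Taking CPM per kilobase of gene model, so that genes can be compared, the SR genes summed to 641 ± 50.8 in Pdk4fl/fl and 365 ± 20.3 in Pdk4SMKO libraries (SD, n = 3). Srsf3 made up 27.7 ± 1.49% of the Pdk4fl/fl sum and ranked first, with Srsf7 next at 16.8 ± 1.55%. In the Pdk4SMKO sum Srsf3 made up 7.49 ± 0.326%, and Srsf5 ranked first at 28.5 ± 3.39% after 4.20 ± 0.318% in Pdk4fl/fl (SD, n = 3). Srsf6 and Srsf2, at 14.0 ± 0.284% and 12.7 ± 1.89% of the Pdk4SMKO sum, followed within their spread of each other.

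Of the 17 hnRNP genes, 12 were lower, 8 of these by at least 2-fold, and only Hnrnpu was higher, with a median log2 fold change of -0.97. By the same rules, 37.1% of all genes tested were lower, 26.5% by at least 2-fold, and 42.0% were higher. Hnrnpc (chromosome 14 from 48127860 to 48171628) encodes the hnRNP C protein that packages nascent transcripts and binds uridine tracts. It had 1250.3, 1281 and 1607 CPM in Pdk4fl/fl and 163, 173 and 189 CPM in Pdk4SMKO libraries, a 7.87-fold difference (log2 fold change -2.98, standard error 0.15, adjusted p = 6.63e-08). No other hnRNP gene had so negative a fold change. An unnamed processed pseudogene whose description names Hnrnpc had 125, 188 and 212 counts in Pdk4fl/fl and 22, 27 and 35 in Pdk4SMKO libraries, and reads of near-identical copies could have been split between them.

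Hnrnpa1 encodes the abundant repressor of exon use hnRNP A1 and was, with Hnrnpc, the highest of the family per kilobase in Pdk4fl/fl cells, the pair differing by less than the spread between libraries. It had 722, 723 and 1097 CPM in Pdk4fl/fl and 270.3, 207 and 266 CPM in Pdk4SMKO libraries (log2 fold change -1.77, adjusted p = 1.23e-05). Hnrnpk, whose product binds cytosine-rich RNA, had 1518, 1537 and 1762 CPM against 519, 553 and 617 CPM (log2 fold change -1.51). Neither gene overlapped between genotypes. Hnrnpd, also known as AUF1 and a factor in mRNA decay, was 3.97-fold lower, and Hnrnpm, Hnrnpdl, Hnrnpa3 and Hnrnpul1 were 2.96-fold, 2.90-fold, 2.73-fold and 2.32-fold lower. The span of Hnrnpm overlaps that of a gene listed as 2-Mar on the same strand. That gene rose from 729 to 3409 counts, against 32949 of Hnrnpm in all libraries. Hnrnpll fell by 0.97 on the log2 scale. Smaller decreases were found in Hnrnph1 (1.73-fold, adjusted p = 0.000542), Hnrnpa2b1 (1.39-fold, adjusted p = 0.00625) and Hnrnpul2 (1.19-fold, adjusted p = 0.0469). The Hnrnph1 call was lost with library size alone (log2 fold change -0.18, adjusted p = 0.266), and with the trend on abundance removed its sign turned (0.12). Hnrnpa2b1 and Hnrnpul2 turned to 0.14 and 0.36 higher on the log2 scale under library size alone, and the Hnrnpul2 call was lost when any of 5 libraries was left out.

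Hnrnpu, whose product binds chromatin and the inactive X RNA as well as pre-mRNA, had 59.9, 58.5 and 67.9 CPM in Pdk4fl/fl and 73.6, 82.5 and 98.4 CPM in Pdk4SMKO libraries. The groups did not overlap (log2 fold change 0.45, standard error 0.14, adjusted p = 0.0126), but the adjusted p was 0.0603 without Pdk4SMKO replicate 3. With the trend of fold change on gene length removed, its log2 fold change was 0.033 (adjusted p = 0.846). Hnrnpl, a relative of Hnrnpll that binds CA repeats, had 193, 174 and 169.5 CPM against 210.0, 211 and 202 CPM, again without overlap (log2 fold change 0.22, adjusted p = 0.0923). Hnrnpa0, Hnrnpab and Hnrnph3 gave log2 fold changes of 0.14, -0.08 and 0.29 and did not pass the threshold. The span of Hnrnph3 overlaps that of Rufy2 on the opposite strand, which had 1315 and 1445 counts against 1790 of Hnrnph3 in all libraries. Summed per kilobase, the hnRNP genes held 2180 ± 274 CPM in Pdk4fl/fl and 893 ± 14.6 CPM in Pdk4SMKO libraries (SD, n = 3). Hnrnpc made up 22.0 ± 0.418% of the first sum and 6.84 ± 0.458% of the second. Hnrnpa0 made up 4.97 ± 0.527% and 13.4 ± 2.18%, although its own CPM differed by less than its spread.

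The families known for setting muscle and nerve splicing programs divided between lower and higher genes. Ptbp1 (chromosome 10 from 83184611 to 83195612) encodes the polypyrimidine tract binding protein, a repressor of smooth muscle exons. It had 1041, 1099.7 and 901 CPM in Pdk4fl/fl and 236, 219 and 214 CPM in Pdk4SMKO libraries, a 4.54-fold difference (log2 fold change -2.18, standard error 0.13, adjusted p = 1.9e-07). Ptbp2, the form known from neurons, had 132, 142 and 173 CPM against 26.9, 25.7 and 32.6 CPM (log2 fold change -2.39, adjusted p = 3.01e-07). Both fell by similar amounts, and the ratio of their counts overlapped between the genotypes. Inside Ptbp2 on the same strand, the intronic transcript Gm42664 rose from 12 to 396 counts over the libraries of a genotype while Ptbp2 fell. Ptbp3, the third paralog, had 78.7, 78.7 and 69.7 CPM in Pdk4fl/fl and 74.4, 72.7 and 86.8 CPM in Pdk4SMKO libraries (log2 fold change 0.04, standard error 0.12, adjusted p = 0.765). Its groups overlapped, and the sign of its fold change turned in 3 of the alternatives, from 0.65 with library size alone (adjusted p = 0.00111) to -0.37 with the trend on gene length removed (adjusted p = 0.0141). In CPM per kilobase, Ptbp1 made up 88.9 ± 1.59% of the family in Pdk4fl/fl and 77.5 ± 2.47% in Pdk4SMKO cells, and Ptbp3 4.27 ± 0.122% and 17.4 ± 1.81% (SD, n = 3).

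**Figure D3:**
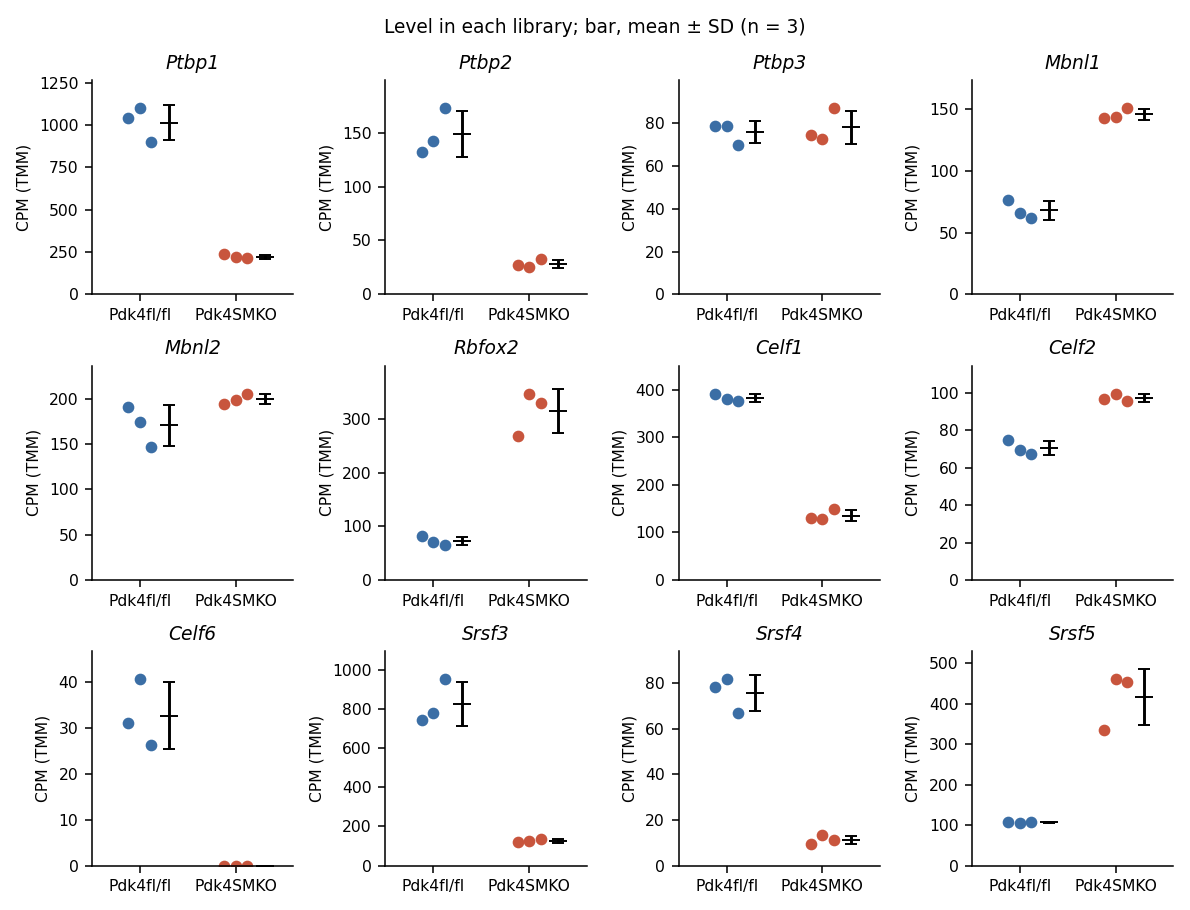
CPM after TMM normalization in each library for 12 genes, with Pdk4fl/fl in blue, Pdk4SMKO in red and the mean ± SD (n = 3) as a black bar, each panel on its own axis from 0. Ptbp1, Ptbp2, Celf1, Srsf3 and Srsf4 are lower and Mbnl1, Rbfox2, Celf2 and Srsf5 higher in every Pdk4SMKO library, Celf6 is at 0 there, and Ptbp3 overlaps.

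Mbnl1, the muscleblind gene that promotes adult muscle splice forms, rose in Pdk4SMKO cells. It had 76.7, 65.5 and 61.6 CPM in Pdk4fl/fl and 143, 144 and 151 CPM in Pdk4SMKO libraries, without overlap (log2 fold change 1.10, standard error 0.12, adjusted p = 1.51e-05). Mbnl2 had 191, 174 and 147 CPM against 195, 199 and 206 CPM, and although the Pdk4SMKO values all lay above, it did not pass the threshold (log2 fold change 0.23, adjusted p = 0.117), which it did with library size alone (0.83, adjusted p = 0.000289). Per kilobase Mbnl2 remained the larger part of the family, at 90.6 ± 0.493% in Pdk4fl/fl and 84.4 ± 0.310% in Pdk4SMKO cells, while Mbnl1 made up 8.91 ± 0.450% and 15.2 ± 0.0984% (SD, n = 3). These shares depend on the gene models, which are 18458 bases long for Mbnl1 and 4552 for Mbnl2. Without length, mean CPM of Mbnl1 and Mbnl2 was 67.9 and 171 in Pdk4fl/fl and 146 and 200 in Pdk4SMKO cells. Mbnl3, on the X chromosome, had between 16 and 71 counts per library and overlapped (log2 fold change -0.03, adjusted p = 0.964). The median of the 3 genes was 0.23, and it turned to -0.05 when the trend of fold change on gene length was removed.

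Rbfox2 (chromosome 15 from 80088764 to 80337004) encodes the RBFOX protein of muscle and other tissues, which binds UGCAUG near regulated exons. It had 81.3, 71.6 and 66.1 CPM in Pdk4fl/fl and 269, 347 and 331 CPM in Pdk4SMKO libraries, a 4.32-fold increase (log2 fold change 2.11, standard error 0.14, adjusted p = 4.27e-07). The lowest Pdk4SMKO library stood far above the highest Pdk4fl/fl library. Its log2 fold change ranged from 1.71 to 2.81 over the alternative settings. Rbfox1 had 2 counts in all libraries together and Rbfox3, the neuronal marker NeuN, had 0, both at or under the floor.

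The CELF genes, whose products bind GU-rich RNA, did not move one way. Of the 4 that passed the filter in both genotypes, 1 was lower and 2 were higher. By the same rule, 37.1% of all genes tested were lower and 42.0% higher. Celf1 had 391, 379.6 and 376 CPM in Pdk4fl/fl and 130.0, 127 and 149 CPM in Pdk4SMKO libraries (log2 fold change -1.50, standard error 0.12, adjusted p = 1.14e-06). Celf2 had 74.8, 69.6 and 67.5 CPM against 96.9, 99.4 and 95.3 CPM (log2 fold change 0.46, adjusted p = 0.00299). In neither gene did the genotypes overlap. The Celf2 call was lost with the trend on gene length removed (log2 fold change 0.026, adjusted p = 0.837). Celf4 rose at a low level, from 58, 61 and 60 counts to 252, 125 and 142 counts (log2 fold change 1.05, adjusted p = 0.0051), a call lost with the trend on abundance removed (0.36, adjusted p = 0.233). Celf3 had 13 to 23 counts per library, with overlap (log2 fold change -0.03, adjusted p = 0.948). Its span overlaps that of Riiad1 on the opposite strand, which had 20 counts in Pdk4fl/fl and 6 in Pdk4SMKO libraries, against 103 of Celf3 in all.

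Celf6 and Celf5 were counted in 1 genotype almost alone. Celf6 (chromosome 9 from 60558529 to 60587666) had 465, 738 and 346 counts in Pdk4fl/fl and 0 in each Pdk4SMKO library, at least 228-fold lower with 3 counts per library as the floor. Celf5 (chromosome 10 from 85001585 to 85026663) had 0, 2 and 0 counts in Pdk4fl/fl and 122, 58 and 39 in Pdk4SMKO libraries. The ratio of the latter was 80.4 with a 95% exact interval from 22.0 to 668, which covers counting error only. Per kilobase, Celf6 thus passed from 16.3 ± 3.10% of the family to 0%, Celf2 from 4.62 ± 0.209% to 16.6 ± 1.29%, and Celf1 stayed the largest part at 77.1 ± 2.63% and 70.9 ± 4.05% (SD, n = 3). The gene models of Celf1 and Celf2 are 8410 and 25891 bases long, and these shares depend on them. The median of the 6 fitted values was 0.22, which turned to -0.18 and -0.16 with the trend on gene length or on abundance removed, and 2 of the 6 values are those of Celf5 and Celf6.

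**Figure D4:**
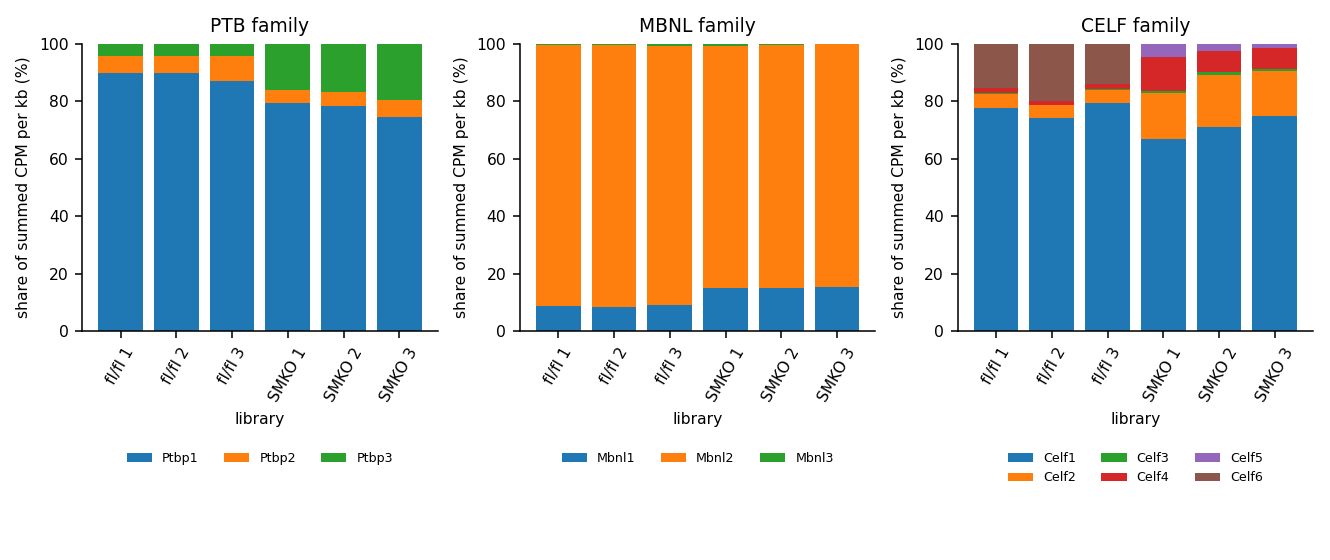
Share of the summed CPM per kilobase of the PTB, MBNL and CELF families taken by its genes, as 1 stacked bar per library that adds up to 100%. Ptbp3, Mbnl1 and Celf2 take larger shares in each Pdk4SMKO library, and Celf6 takes none there.

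Ratios of 2 genes within a library do not depend on scaling, so 13 pairs of genes from the same family were compared by the log2 ratio of their counts. They came from 15 listed pairs, of which Rbfox2/Rbfox1 and Hnrnph1/Hnrnph2 were not compared. For 11 pairs the genotypes did not overlap, and for 2 pairs, Ptbp1/Ptbp2 and Sf3a1/Sf3a3, they did. Among single genes 81.8% did not overlap, and the share among gene pairs in general was not computed, so the count of pairs is not read as particular to them. The exact permutation test again gave p = 0.1 for each of the 11 pairs, and 0.118 after Benjamini-Hochberg adjustment over the 13 pairs, so that none passed the threshold. Srsf4/Srsf5 moved most, from a log2 ratio of -0.51 ± 0.157 in Pdk4fl/fl to -5.20 ± 0.128 in Pdk4SMKO libraries (SD, n = 3). Sf3b1/Sf3b2 rose from -2.54 ± 0.165 to 0.52 ± 0.118, but the sign of a count ratio depends on gene length, and per kilobase Sf3b2 stayed the higher in Pdk4SMKO cells (70.7 and 28.9 CPM per kilobase). Ptbp1/Ptbp3 fell from 3.74 ± 0.0576 to 1.52 ± 0.193 and Celf1/Celf2 from 2.44 ± 0.0464 to 0.48 ± 0.151. The ratios of Srsf1/Srsf9, Hnrnpa1/Hnrnpa2b1, Srsf3/Srsf7 and Hnrnpd/Hnrnpdl were lower in each Pdk4SMKO library by means of 1.30, 1.29, 1.00 and 0.46, given here as sizes. Those of Hnrnpl/Hnrnpll, Mbnl1/Mbnl2 and U2af1/U2af2 were higher by 1.19, 0.87 and 0.84. The pair of Ptbp1 and Ptbp2 differed by 0.21 between genotype means, less than the 0.337 SD within Pdk4fl/fl.

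**Figure D5:**
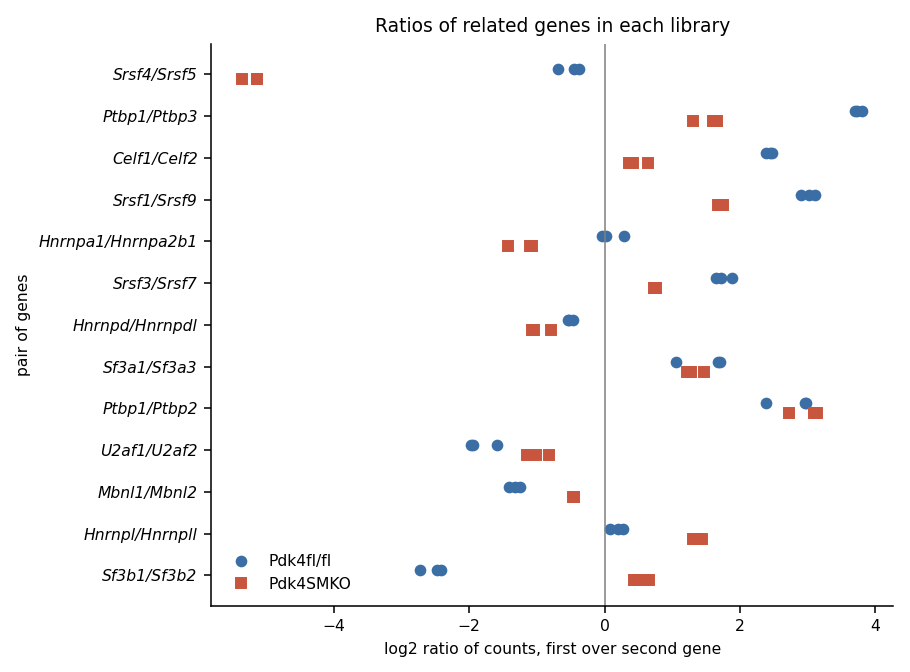
Log2 ratio of the counts of the first gene over the second in each library for the 13 pairs, with Pdk4fl/fl as blue circles and Pdk4SMKO as red squares. The 2 genotypes are separate in 11 pairs, farthest in Srsf4/Srsf5, and mix in Ptbp1/Ptbp2 and Sf3a1/Sf3a3.

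Splicing genes outside these families were also mostly lower. Of 125 further genes of the splicing machinery in the table, 117 were tested, of which 78 (66.7%) were lower and 15 (12.8%) higher, with a median log2 fold change of -0.88. Among all 14085 genes tested, 37.1% were lower and 42.0% higher, 79.1% in all, against 79.5% in all here. Esrp2 and Nova1 passed the filter only through Pdk4SMKO, so they had to be higher, and the 15 and the median include them. With the trend on abundance removed, 67 of these splicing genes were lower and 24 higher. By group, 14 of 22 proteins of the U4/U6.U5 and other snRNPs, 4 of 7 LSm genes, 22 of 29 genes of the catalytic steps, 9 of 15 SR-related genes, 7 of 9 genes that modify or import SR proteins and 22 of 35 further regulators were lower. The most negative fold changes were those of Prpf3, a U4/U6 protein, Dhx38, the helicase also known as PRP16, and Syf2, a component of the catalytic spliceosome. Prpf3 had 648, 761 and 671 CPM in Pdk4fl/fl and 24.5, 19.8 and 22.4 CPM in Pdk4SMKO libraries (log2 fold change -4.96, adjusted p = 9.68e-09). Dhx38 had 2165, 2523 and 1427 CPM against 86.4, 97.1 and 83.1 CPM, and Syf2 349, 402 and 433 CPM against 26.8, 29.2 and 32.5 CPM. All 3 were separated by more than 10-fold (31.2-fold, 22.9-fold and 13.4-fold), more than any tested gene of the SR, hnRNP, SF3, snRNP or U2AF families.

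The genes that rose most outside these families were Esrp2, Nova1 and Srrm2. Esrp2, the epithelial splicing regulatory protein, had 5, 4 and 0 counts in Pdk4fl/fl and 483, 500 and 452 in Pdk4SMKO libraries, and it passed the filter only through the latter, as did Nova1 with 5, 7 and 0 counts against 63, 59 and 69. These rises ran beside those of the mesothelial markers given above, whose part in them was not tested. Srrm2, a large scaffold protein of nuclear speckles, had 166, 132 and 103 CPM against 549, 562 and 529.8 CPM (log2 fold change 2.03, adjusted p = 1.99e-06). Among regulators linked to smooth muscle, Rbpms rose from 61.9, 63.7 and 64.7 CPM to 119.9, 165 and 159 CPM (log2 fold change 1.22, adjusted p = 2.02e-05). Its relative Rbpms2 had 42 to 133 counts per library and overlapped (log2 fold change -0.77, adjusted p = 0.0928). Qk, the quaking gene, fell by 0.56 on the log2 scale (adjusted p = 0.0023). Of all genes tested, 37.1% were lower and 42.0% higher, 79.1% in all. Of the 9 tested genes that modify or import SR proteins, 7 (77.8%) were lower and 0 higher. Their log2 fold changes ran from -2.74 for the kinase Clk3 to 0.02 for the kinase Prpf4b, which did not pass the threshold (adjusted p = 0.857), both named here after their values were seen. Srpk1 and Clk1 fell by 0.80 and 0.52 on the log2 scale (adjusted p = 0.00012 and 0.0241).

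In the GENCODE M21 annotation, 51.6% of the 62 tested genes have a transcript marked for nonsense-mediated decay, as against 28.7% of 11748 tested protein-coding genes, and 82.3% and 59.5% have a transcript with a retained intron. The SR family stood highest among the larger families, with 9 of 10 genes carrying an annotated decay transcript. Many SR and hnRNP genes are known to control their own level through such transcripts. Counts per gene sum over all of a gene's transcripts, so productive and decay forms of Srsf3, Srsf5 or Ptbp1 were not separated here. The spans of 28 of the 65 genes overlap another gene in the table, 21 of them on the opposite strand, and for 8 the overlapping gene had more than 10% of their own counts.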

How the data were processed

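RNA from 6 MASMC cultures was sequenced, and the authors deposited raw counts, whole numbers of reads per gene, in 1 table. The aligner, the counting program and its use of strand are not given in the sources used here. The submitters' processing notes name GRCm39, whereas the gene identifiers are those of the C57BL/6NJ strain annotation, whose coordinates are given. The study's methods and the labels name different library kits (NEBNext Ultra and SMARTER). Per-sample columns left unused numbered 0.

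The genes and lists were chosen with earlier results of these data known. Groups followed the genotype labels. In R 4.3.3, edgeR 4.0.16 (filterByExpr, TMM, quasi-likelihood test on genotype, Benjamini-Hochberg adjustment over 14085 genes) was the main test. DESeq2 1.42.0, other scalings and filters, a replicate block and leaving out each library were alternatives, and removing the smooth trend of each library on gene length or abundance was added after the values were seen. Named were all PTB, MBNL, CELF, RBFOX and U2AF genes, in the other families the 2 tested genes at either end of the fold changes and the highest per kilobase, every gene past the threshold and 2-fold, the paired genes, Rbpms, Rbpms2, Qk, Srpk1, Clk1 and the 3 other splicing genes at either end. The remaining genes of the families were named so as to account for each. CPM per kilobase uses the gene length of the table, that of the gene model. It need not be the length of the mRNA present, and the family shares depend on it. Promoters came from RefSeq (GRCm38.p6) by symbol. Floors and intervals cover counting error only. The fits were tested on simulated counts in which 200 of 13985 tested genes were changed. Far more genes were called in the data, so the simulation does not bear on the choice of scaling.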

Additional observations from a re-analysis of the deposited data

Results flagged for a closer look

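Besides the named genes, 18 unnamed entries of the table have descriptions that name a gene of these families, and 6 of them had counts. A pair of entries described as Hnrnph2, which overlap on chromosome 3, stood above their Pdk4fl/fl level although no comparison above uses them. The processed pseudogene had 13, 24 and 13 counts in Pdk4fl/fl and 92, 106 and 113 in Pdk4SMKO libraries, with a mean of 4.95 CPM in the latter (edgeR log2 fold change 2.21, adjusted p = 7.87e-05). The entry listed as protein-coding had 20, 7 and 9 counts against 60, 63 and 74, with a mean of 3.13 CPM in Pdk4SMKO (edgeR log2 fold change 1.98, adjusted p = 0.00179). Both are low, they share sequence with each other, and how the authors' counting divided such reads is not known.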

How the results depend on the processing

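The counts of lower and higher genes moved with the scale. Upper-quartile scaling gave 38 lower and 14 higher genes and a median log2 fold change of -1.06, library size alone gave 35 and 20 and a median of -0.66, and removing the trend on abundance gave 36 and 17 and a median of -0.68. At 2-fold, library size alone left 20 lower and 9 higher genes, and removing the trend on gene length left 3 higher. Of the other splicing genes, 36 were higher with library size alone and 24 with the abundance trend removed. DESeq2 gave 42 lower and 9 higher genes. With each library left out in turn, the lower genes ranged from 39 to 41, the higher from 8 to 12 and the median from -1.34 to -1.05, the last without Pdk4fl/fl replicate 3. The pairs that did not overlap ranged from 11 to 12. The cause of these moves was not tested.

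The fold changes of 13 genes changed sign in at least 1 alternative, 5 of which were called lower (Srsf1, Srsf6, Hnrnpa2b1, Hnrnph1 and Hnrnpul2). Under library size alone the log2 values were 0.25 for Srsf10, 0.33 for Srsf6, 0.14 for Hnrnpa2b1, 0.52 for Hnrnpab, 0.36 for Hnrnpul2, 0.57 for Celf3 and 0.59 for Mbnl3. With the abundance trend removed they were 0.19 for Srsf1, 0.59 for Srsf6, 0.64 for Hnrnpa2b1, 0.81 for Hnrnpab, 0.12 for Hnrnph1, -0.095 for Hnrnph3 and 0.57 for Hnrnpul2. With the length trend removed they were -0.19 for Hnrnpl, -0.055 for Mbnl2 and -0.37 for Ptbp3. Upper-quartile scaling gave 0.13 for Hnrnpab, 0.18 for Celf3 and 0.19 for Mbnl3. Without a filter, the values were 0.020 for Celf3 and 0.020 for Mbnl3, and with a minimum of 10 counts per library they were 0.015 for Hnrnpab, 0.072 for Celf3 and 0.074 for Mbnl3. Leaving out a library gave -0.18 to 0.063 for Celf3, -0.85 to 0.28 for Mbnl3 and -0.033 to 0.10 for Ptbp3.

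The replicate numbers were tried as a block. Deviations of same-numbered libraries correlated at 0.0396, 0.0604 and 0.176, so the numbers were not taken to pair the libraries, and replicate 1 of Pdk4fl/fl correlated best with another number. The replicate block gave 41 lower and 10 higher genes with a median of -1.25. Of the lower genes 40 were the same, as Hnrnpul2 was lost (adjusted p = 0.0519) and Srsf10 gained (adjusted p = 0.0308), and Snrpd3 was gained as higher (adjusted p = 0.0478).

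Celf3, Mbnl3 and Srsf12 were limited by low counts. Genotype and any difference between the cultures in cell makeup or sex cannot be told apart.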

Other observations

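An unnamed protein-coding entry on chromosome 17 (28302844 to 28318373), whose description names Snrpc, the U1 snRNP protein U1-C, is not among the 65 genes because it carries no gene name. It had 1023, 1233 and 1195 counts in Pdk4fl/fl and 640, 524 and 541 in Pdk4SMKO libraries, or 75.4 ± 13.0 and 26.9 ± 1.06 CPM (SD, n = 3). The groups did not overlap (edgeR quasi-likelihood test, log2 fold change -1.49, adjusted p = 6.07e-06). The entry was chosen after its values were seen.

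In 4 pairs of genes taken from the same family above, the gene that fell had the higher level per kilobase in Pdk4fl/fl cells. The other gene was higher in Pdk4SMKO cells or, for Ptbp3, did not pass the threshold. Per kilobase in Pdk4fl/fl cells, Srsf3 stood at 178 CPM and Srsf5 at 26.8 CPM, Ptbp1 at 215 CPM and Ptbp3 at 10.3 CPM, Celf1 at 45.4 CPM and Celf2 at 2.73 CPM, and Sf3b2 at 333 CPM and Sf3b1 at 16.2 CPM. In Pdk4SMKO cells the order of Srsf3 (27.3 CPM per kilobase) and Srsf5 (105 CPM per kilobase) was exchanged, whereas Ptbp1 (47.2 and 10.6 for Ptbp3), Celf1 (16.1 and 3.75 for Celf2) and Sf3b2 (70.7 and 28.9 for Sf3b1) kept the higher place. These pairs were picked after their values were seen, and Srsf3/Srsf5 is not among the 13 pairs compared above. Other pairs ran differently. Srsf4 fell from 21.2 CPM per kilobase, below Srsf5, and Hnrnpll fell from 13.6 CPM per kilobase, below Hnrnpl at 30.1. Fold change also fell with abundance over the whole table, so the pattern is not read as particular to these pairs.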
